A study of Mus musculus with 80 samples.

Results

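Genes whose response to fasting differed between hepatocytes and macrophages of the mouse liver were examined after 8 h without food. The comparison used 16 of the 80 libraries of the series, 4 in each of 4 groups, and asked for every gene how far the fasting effect in hepatocyte nuclei exceeded or fell short of that in macrophage nuclei. Both mouse lines carried a nuclear tag for INTACT, a method that pulls tagged nuclei of a single cell type out of whole tissue with beads. Hepatocyte nuclei came from female HEP-INTACT mice and macrophage nuclei from female MAC-INTACT mice. In each line, 4 libraries came from mice fasted for 8 h from zeitgeber time 12, the onset of the active phase, and 4 from mice fed ad libitum and taken at the same hour, zeitgeber time 20. The labels do not state the promoter that drives each tag, the strain, the age or how many mice stand behind a tagged library, so the p-values below measure the spread between these libraries. Line, cell type, library number series and the mice themselves changed together between the arms and cannot be told apart.

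Fasting makes hepatocytes burn fatty acids, make ketone bodies and glucose for the rest of the body, and stop making fat and cholesterol. The nuclear receptor PPAR alpha, the glucocorticoid receptor and FoxO factors switch on the first programme, and SREBP factors drive the second when food and insulin are present. Kupffer cells, the macrophages resident in liver sinusoids, clear particles and old red cells from the blood and recycle their iron, and they meet the same hormones and nutrients as the hepatocytes beside them.

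The libraries held between 13162181 and 42080780 counts. Levels are given in CPM, counts scaled to the size of each library with TMM factors, from nuclear RNA counted over whole gene bodies. Sums of markers are in CPM of the library total without TMM factors, so they are on a slightly different scale. Effects and differences are on the log2 scale, and each ± is the standard error of the fit with 4 libraries a group. The 30 Kupffer cell and macrophage markers summed to 7337 to 12500 CPM in the macrophage libraries and to 264 to 404 CPM in the hepatocyte libraries. The 24 hepatocyte markers summed to 13008 to 30903 CPM in the hepatocyte libraries. None of those 24 was at 0 in the macrophage libraries, where they summed to 6043 to 8973 CPM in the fed group and to 11159 to 13568 CPM in the fasted group, ranges that did not overlap. In bulk nuclei, fewer nuclei of a type and less RNA per nucleus cannot be told apart.

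Unpurified liver nuclei, pooled from 4 mice for each line and condition, gave a further measurement with no replicate. At 8 h, the fasting effects of the pools of both lines differed in the same direction as those of the tagged nuclei in 906 of the genes called below (84.8%), against 62.6% of all genes tested. The median size of the called differences was 1.03 in tagged nuclei, and the pools' difference in that direction had a median of 0.32. The part of the hepatocyte marker sum and of the pools in the results was not tested, and their values are given beside many of the genes named. With the pools' difference subtracted, edgeR called 0 differences, with 286 genes at an unadjusted p under 0.05, and 49 of the 1068 changed sign.

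Across 14011 genes tested with edgeR's quasi-likelihood test and Benjamini-Hochberg adjustment, 1068 (7.62%) had a called difference, with an adjusted p under 0.05. The difference, hepatocyte minus macrophage, was positive in 541 genes (3.86%) and negative in 527 (3.76%). In the same fit, fasting changed 5041 genes (36%) in hepatocyte nuclei, of which 2416 (17.2%) rose and 2625 (18.7%) fell. In macrophage nuclei it changed 1547 genes (11%), of which 779 (5.56%) rose and 768 (5.48%) fell. Fasted and fed libraries did not overlap for 4872 genes (34.8%) in hepatocytes and 2959 genes (21.1%) in macrophages. The macrophage counts rested on single libraries. Without fasted macrophage library 3, 333 genes rose and 208 fell there, and without fasted macrophage library 4, 460 fell. Without fed macrophage library 1 the counts were 464 and 470, and without fed macrophage library 2 they were 474 and 414. Leaving out fed macrophage library 1 also lowered the positive differences from 541 to 361 and the negative ones from 527 to 335.

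Most called genes changed in the hepatocytes. The fasting effect was called in hepatocytes only for 849 of the 1068 genes (79.5%), in macrophages only for 52 (4.87%), and in neither for 33 (3.09%). It was called in both cell types in the same direction for 113 (10.6%) and in opposite directions for 21 (1.97%). Of the 1006 genes called in both arms, 985 moved in the same direction, and 134 of the 1006 (13.3%) had a called difference. Without fasted macrophage library 3, the genes with opposite directions numbered 4, those called in macrophages only 14, and those called in both in the same direction 59.

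**Figure D1:**
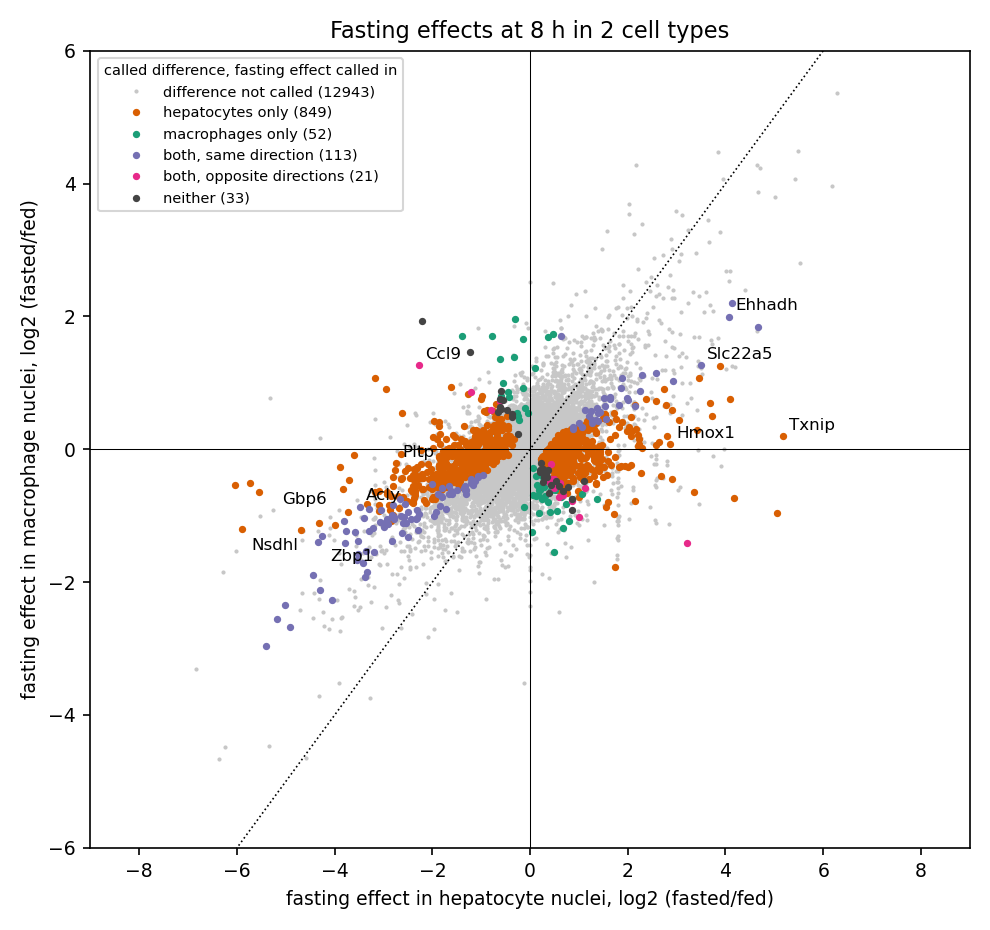
Fasting effect of each gene in hepatocyte nuclei (x axis) and in macrophage nuclei (y axis) at 8 h, as log2 of fasted over fed. Coloured points are the 1068 genes with a called difference, by the arm in which fasting was called, grey points are the other genes, and the dotted line marks equal effects. The 849 genes called in hepatocytes only spread along the horizontal axis, and 1 gene lies outside the x range and 1 outside the y range.

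Among the genes called in hepatocytes only, Txnip, Myom1 and Acot2 had high positive differences. Txnip encodes thioredoxin-interacting protein, an inhibitor of glucose uptake that responds to FoxO factors and to glucose. In hepatocytes it stood at 3.71, 4.17, 5.35 and 7.07 CPM in the fed libraries and 245, 123, 182 and 187 CPM in the fasted ones. In the macrophage libraries the levels were 64.9, 70.7, 42.5 and 50.8 CPM in the fed libraries and 47, 77.5, 74.1 and 63.9 CPM in the fasted ones. The hepatocyte groups were apart, with the fed libraries low, and the macrophage groups overlapped. The fasting effect was 5.18 ± 0.42 in hepatocytes and 0.20 ± 0.34 in macrophages, and the difference was 4.98 ± 0.52 (adjusted p = 5.17e-09). In the pools, on the log2(CPM + 1) scale, Txnip was higher in fasted liver by 3.38 in the hepatocyte line and 2.09 in the macrophage line.

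Myom1, which encodes the sarcomere protein myomesin 1, rose from a mean of 4.45 to 76.1 CPM in hepatocytes (difference 3.33 ± 0.54). Its macrophage means were 15.2 and 25.9 CPM, with no overlap of fed and fasted libraries, and the effect of 0.76 ± 0.36 was not called. Acot2, a mitochondrial acyl-CoA thioesterase, rose from 0.814 to 10.9 CPM in hepatocytes, against 1.29 and 1.87 CPM in macrophages (difference 3.23 ± 0.51). Acot2 has near-identical neighbours whose reads the counting may have split. Catip had 0 counts in the 4 fed hepatocyte libraries together and 13 in the 4 fasted ones. With the fed sum set to a floor of 3 counts, that is a ratio of 3.94, which leaves out the counting error of the 13. Macrophage libraries gave 2.82 CPM fed and 1.44 CPM fasted, against 0.189 CPM in fasted hepatocytes. At the other times Catip was 3.58 higher on the log2 scale in tagged macrophage nuclei than in the pools of that line.

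At the negative end of the genes called in hepatocytes only, Clec2h, a C-type lectin gene, fell from 7.36 to 0.144 CPM in hepatocytes (difference −4.90 ± 1.23). Its macrophage means were 1.29 CPM fed and 0.847 CPM fasted. Scd3, a stearoyl-CoA desaturase with close relatives, fell from 2.22 to 0.175 CPM, against 0.912 and 0.868 CPM in macrophages (difference −3.52 ± 0.85). Htra4, a serine protease gene, fell from 1.95 to 0.0791 CPM. Summed over the 4 hepatocyte libraries of a group, counts went from 467 to 11 for Clec2h, 149 to 13 for Scd3 and 127 to 5 for Htra4. Htra4 was also lower in fasted macrophages, at 2.76 and 1.17 CPM with no overlap of libraries, an effect of −1.21 ± 0.51 that was not called. Its difference of −3.47 ± 1.01 was not called without fasted hepatocyte library 1 (−2.89, adjusted p = 0.0748) or without fasted hepatocyte library 3. Chtf18, a gene of replication factor loading that overlaps Gng13, had 40 counts in the fed hepatocyte libraries and 3 in the fasted ones. That is a ratio of 14.6 with a 95% interval of 4.66 to 74.0, which covers counting error only, and its difference lost its call in 8 of 16 fits that each left out 1 library, with the highest adjusted p, 0.0902, without fasted hepatocyte library 2.

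**Figure D2:**
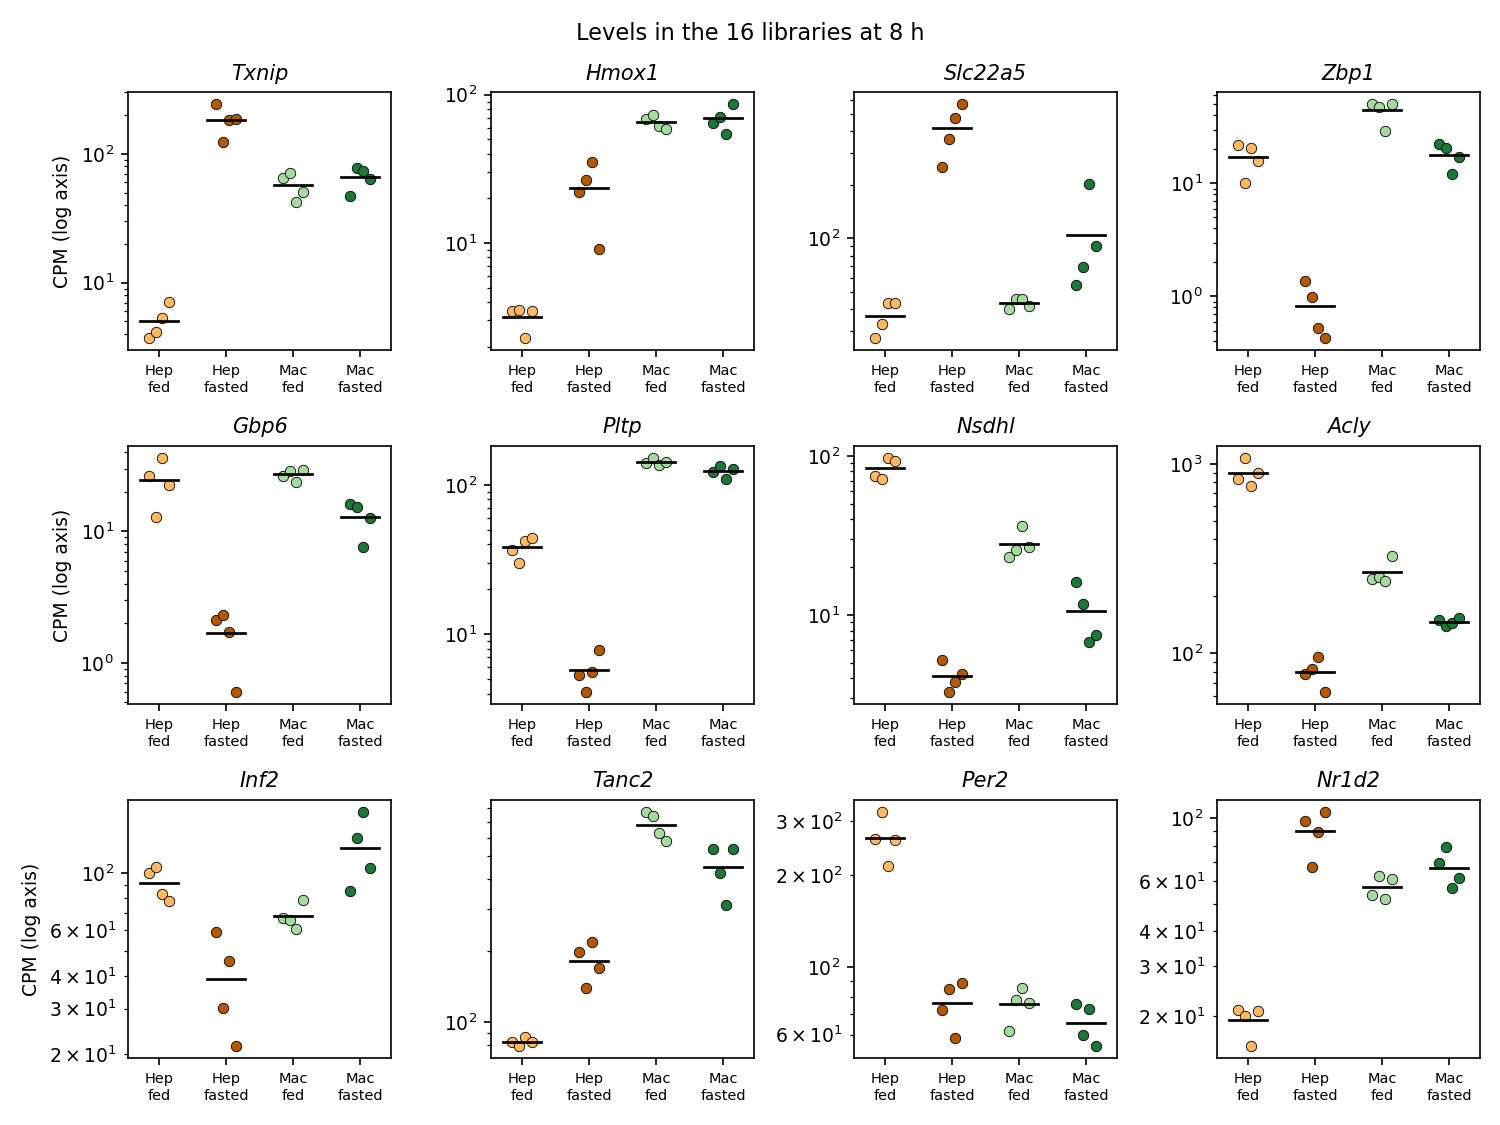
Levels in CPM (log axis, a separate range in each panel) of 12 genes in the 16 libraries, with 1 point a library and a bar at the mean of each group of 4. Txnip, Hmox1 and Nr1d2 have fed and fasted points apart in hepatocytes (Hep) and mixed in macrophages (Mac), while Inf2 and Tanc2 move in opposite directions in the 2 cell types.

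Most cholesterol synthesis genes fell in the libraries of both cell types, and many fell further in hepatocyte libraries. Of 26 members, 15 had a negative difference and 1 a positive one (61.5% called, against 7.62% of all genes tested). The median difference was −1.41, against a median of −0.002 over all genes tested. Fasting lowered 24 of the 26 in hepatocytes, with a median effect of −2.77, and 19 in macrophages, with a median of −1.29. Over all genes tested it lowered 18.7% and 5.48%. The macrophage purification depletes 24 of the 26, that is, their level was lower in tagged macrophage nuclei than in the pools of the same line at the other times. Genes called enriched below were more than 1 higher there on the log2 scale. Of the 14011 genes tested, the purification depletes 5092 and enriches 2336. Hepatocyte markers summed to 6043 to 8973 CPM in the fed macrophage libraries and 11159 to 13568 CPM in the fasted ones. The part of hepatocyte RNA in the fall of cholesterol synthesis genes in macrophage libraries was not tested. Nsdhl, an enzyme that demethylates the sterol ring, stood at 75, 71.8, 97.6 and 93.7 CPM in fed and 5.24, 3.29, 3.82 and 4.29 CPM in fasted hepatocytes. Its macrophage levels were 23.2, 25.5, 36.5 and 26.8 CPM fed and 16.2, 11.8, 6.78 and 7.53 CPM fasted. Fed and fasted libraries were apart in both cell types, and the difference was −2.94 ± 0.46 (adjusted p = 3.09e-05), with pool effects of −3.65 in the hepatocyte line and −2.50 in the macrophage line.

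Earlier in the pathway, Mvk, mevalonate kinase, fell from 24.3 to 2.25 CPM in hepatocytes and from 10.6 to 5.13 CPM in macrophages (difference −2.36 ± 0.40). Mvd, Fdps and Sqle, which lead from mevalonate to squalene epoxide, fell in both, with differences of −2.66 ± 0.53, −2.25 ± 0.53 and −2.62 ± 0.68. Tm7sf2, a sterol reductase gene that overlaps Vps51, fell from 43 to 4.35 CPM and from 13.3 to 7.1 CPM (difference −2.40 ± 0.34). Ggps1, which makes the geranylgeranyl donor for proteins, was the member with a positive difference (0.66 ± 0.16) and rose in hepatocytes by 0.75 ± 0.11.

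Fat synthesis genes fell in more members in hepatocytes than in macrophages. Of 28, 19 fell and 3 rose in hepatocytes, and 8 fell and 2 rose in macrophages. Over all genes tested, 18.7% fell and 17.2% rose in hepatocytes, and 5.48% fell and 5.56% rose in macrophages. The difference was negative in 8 and positive in 0 (28.6% called, against 7.62% of all genes tested), with a median of −0.91. The macrophage purification depletes 23 of the 28, and the part of hepatocyte RNA in their fall in macrophage libraries was not tested. Acly, the enzyme that makes cytosolic acetyl-CoA from citrate, stood at 832, 1079, 761 and 899 CPM in fed and 78.1, 82.9, 96.3 and 62.6 CPM in fasted hepatocytes. In macrophages it stood at 246, 254, 243 and 327 CPM fed and 150, 139, 145 and 155 CPM fasted. Feeding separated both cell types, and the fasted macrophage libraries lay above the fasted hepatocyte ones. The effects were −3.48 ± 0.28 and −0.86 ± 0.25, and the difference was −2.62 ± 0.36 (adjusted p = 2.71e-06), with pool effects of −3.22 and −2.15. Scd1, a desaturase that makes monounsaturated fatty acids, fell from 568 to 42.9 CPM in hepatocytes, and its macrophage means of 164 and 84.7 CPM did not differ by the test (difference −2.78 ± 0.64). Its relative Scd2, which the macrophage purification enriches, fell from 4.81 to 0.681 CPM in hepatocytes against 9.57 and 6.5 CPM in macrophages (difference −2.25 ± 0.59). Srebf1, which encodes the transcription factor of the fat synthesis programme and overlaps Rai1, fell in both, with a difference of −1.79 ± 0.48. Fabp5, a fatty acid carrier, fell from 4.15 to 0.193 CPM in hepatocytes (difference −3.20 ± 0.91), and was not called without fasted macrophage library 4 (−2.90, adjusted p = 0.0598). Fasn, fatty acid synthase, fell in both, and its difference of −1.58 ± 0.67 was not called (adjusted p = 0.141).

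The glucose 6-phosphate transporter gene Slc37a4 rose in the macrophage libraries. It stood at 8.12, 8.26, 11.6 and 7.9 CPM in fed and 18, 30.4, 41.1 and 26.6 CPM in fasted macrophages, with no overlap, and at 25.5, 27.7, 22.5 and 27.5 CPM in fed and 16.6, 56.4, 21.1 and 39.2 CPM in fasted hepatocytes, which overlapped. Its difference of −1.33 ± 0.42 lost its call in 10 of the 16 fits that left out 1 library, with the highest adjusted p, 0.103, without fasted macrophage library 3, and turned to 0.11 with the pools' difference subtracted. The macrophage purification depletes Slc37a4, and the hepatocyte marker sum was higher in the same fasted macrophage libraries.

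Among genes of cholesterol efflux, Pltp, the phospholipid transfer protein and a target of the sterol receptor LXR, fell in hepatocytes. It stood at 36.8, 29.8, 41.8 and 44.4 CPM in fed and 5.36, 4.09, 5.58 and 7.89 CPM in fasted hepatocytes, and at 139, 152, 135 and 143 CPM in fed and 122, 134, 109 and 128 CPM in fasted macrophages. Fed libraries were above fasted ones in both cell types, by far more in hepatocytes, and the macrophage effect of −0.21 ± 0.33 was not called. The difference was −2.54 ± 0.49 (adjusted p = 0.000491). The purification enriches Pltp, which overlaps Ctsa, and it was lower in the fasted pools of both lines, by 1.62 and 2.07. Abca1, the cholesterol exporter, rose in macrophages (0.54 ± 0.18) with a hepatocyte effect of −0.28 ± 0.18 that was not called (difference −0.82 ± 0.25). Tmem135, a peroxisomal and mitochondrial membrane protein gene, rose in hepatocytes (0.56 ± 0.14, difference 0.80 ± 0.20). Its macrophage effect of −0.24 ± 0.14 was not called, though fed and fasted libraries did not overlap there.

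Most fatty acid oxidation and ketogenesis genes rose in both cell types. Of 53 members, 48 rose in hepatocytes and 32 in macrophages, against 17.2% and 5.56% of all genes tested. The difference was positive in 10 and negative in 0 (18.9% called, against 7.62% of all genes tested). The median effects were 1.55 and 0.87, and the median difference was 0.55. The macrophage purification depletes 46 of the 53, and the rise in macrophage libraries stands beside a hepatocyte marker sum that went from 6043 to 8973 CPM fed to 11159 to 13568 CPM fasted in the same libraries. The part of hepatocyte RNA in that rise was not tested. The count of 10 was 20 without fasted macrophage library 3 and 6 without fed macrophage library 4. Slc22a5, the carnitine importer, stood at 27.5, 32.9, 43.3 and 43.5 CPM in fed and 251, 361, 474 and 569 CPM in fasted hepatocytes, and at 40.3, 45.4, 45.8 and 41.8 CPM in fed and 54.7, 69.3, 202 and 90.3 CPM in fasted macrophages. Feeding separated both cell types, and library 3 was the high one of the fasted macrophage group. The difference was 2.23 ± 0.41 (adjusted p = 0.000275), and the pools gave 3.27 in the hepatocyte line and 1.75 in the macrophage line.

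Ehhadh, a peroxisomal oxidation enzyme, stood at 36, 52, 459 and 156 CPM in the fasted macrophage libraries, again highest in library 3, and at 34, 35.5, 44.1 and 62.6 CPM in the fed ones. In hepatocytes it rose from 85.5 to 1442 CPM. Its difference of 2.08 ± 0.67 lost its call in 13 of the 16 fits that left out 1 library, with the highest adjusted p, 0.101, without fasted hepatocyte library 3, and turned to −0.04 with the pools' difference subtracted. Pdk4, the kinase that shuts pyruvate dehydrogenase, rose from 15.7 to 233 CPM in hepatocytes against 8.79 and 21.1 CPM in macrophages. Its difference of 2.64 ± 0.81 was lost in 8 of the 16, with the highest adjusted p, 0.0912, without fasted hepatocyte library 4, and turned to −0.45 with the pools subtracted. Acadl, an acyl-CoA dehydrogenase, rose in both with a difference of 0.84 ± 0.20. Cpt1a, which brings fatty acids into mitochondria, rose in both (1.69 ± 0.23 and 0.79 ± 0.22), and its difference was not called (0.90 ± 0.31, adjusted p = 0.0645).

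Of 31 glucocorticoid receptor targets, 21 rose in hepatocytes and 16 in macrophages, against 17.2% and 5.56% of all genes tested. The 2 members with a called difference (6.45%, against 7.62% of all genes) were Pdk4 and the stress gene Gadd45b. The 2 were 4 without fasted hepatocyte library 1, and 1 positive without fasted hepatocyte library 4, fed hepatocyte library 1, 3 or 4, fasted macrophage library 1 or 2, or fed macrophage library 4. Gadd45b stood at 0.295, 1.45, 0.356 and 0.691 CPM in fed and 27.3, 16.5, 15.8 and 12.2 CPM in fasted hepatocytes, and at 1.25, 1.29, 1.08 and 1.71 CPM in fed and 1.36, 1.45, 6.52 and 9.81 CPM in fasted macrophages. The macrophage groups overlapped, and fasted libraries 3 and 4 were the high ones (difference 2.83 ± 0.71). Fkbp5, a feedback gene of that receptor, rose in both, from 75.4 to 556 CPM and from 105 to 949 CPM, and its difference of −0.29 ± 0.61 was not called.

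**Figure D3:**
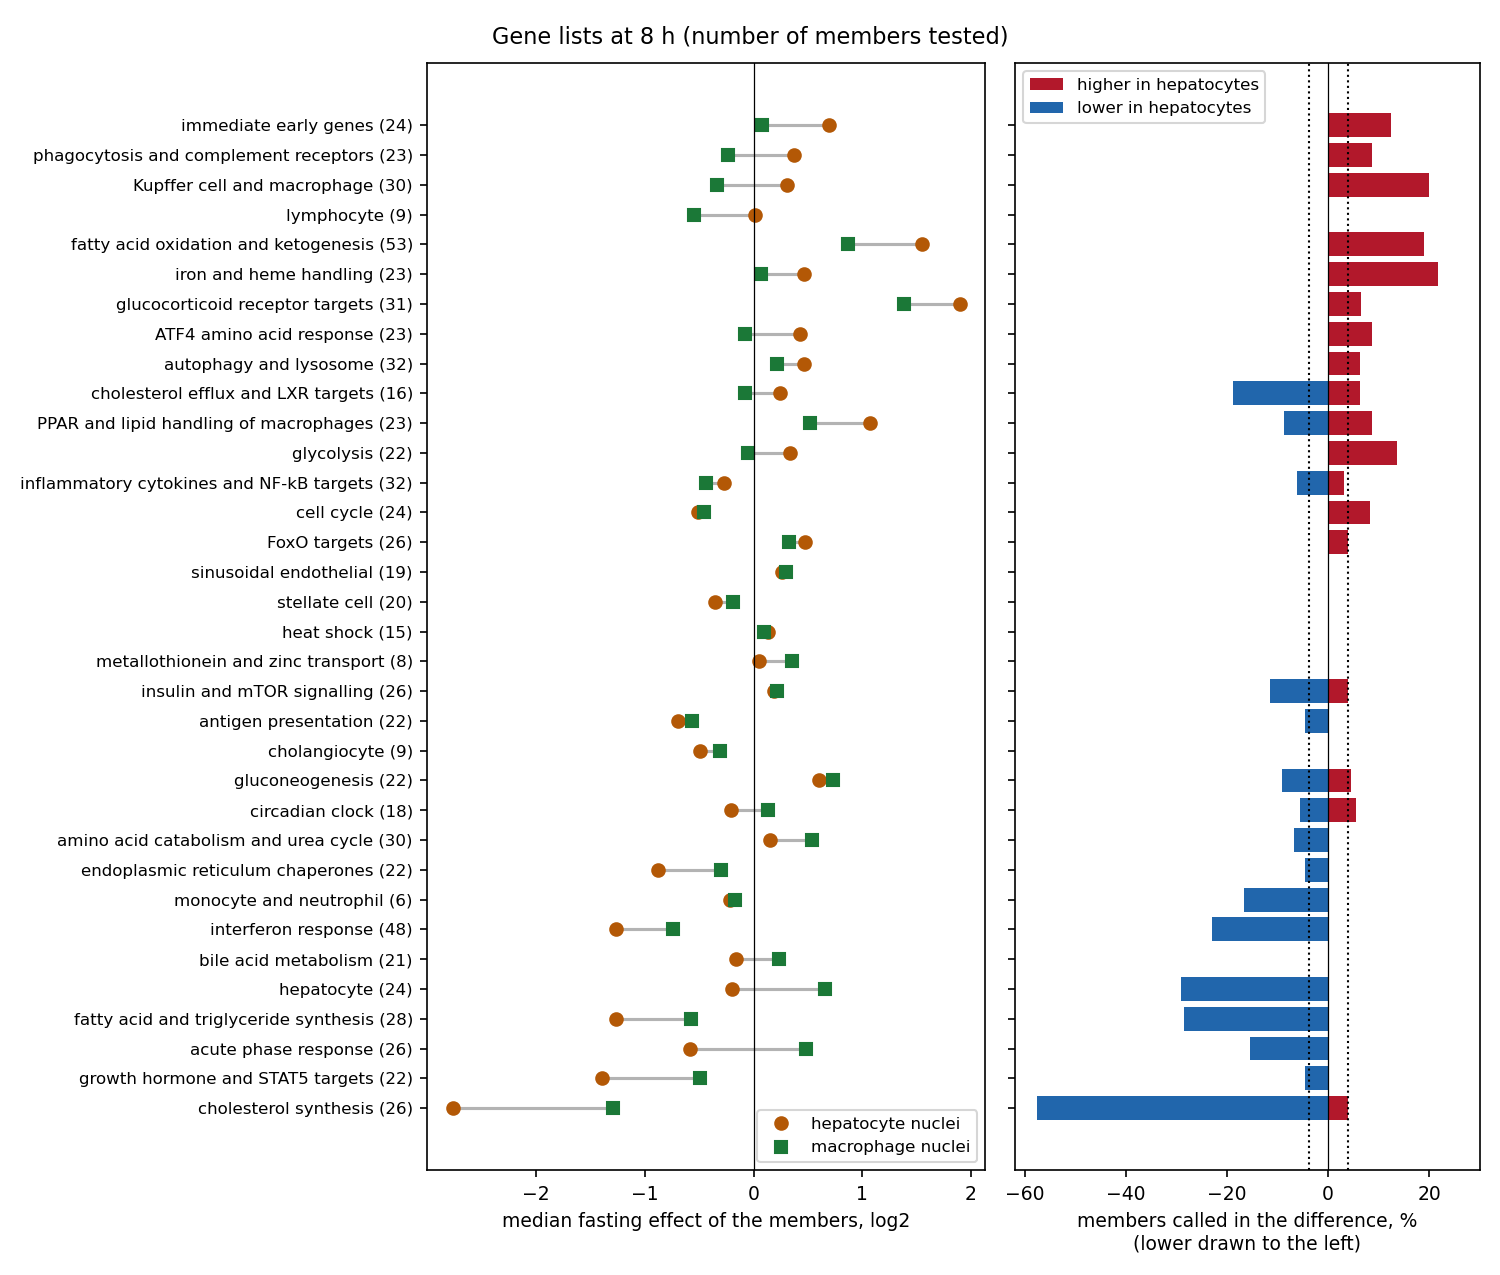
Left, the median log2 fasting effect of the tested members of each of 34 gene lists in hepatocyte (circles) and macrophage nuclei (squares). Right, the percent of members with a positive (red) or negative (blue) called difference, with dotted lines at the 3.86% and 3.76% of all genes tested. Cholesterol synthesis has a median of −2.77 in hepatocytes and 15 of 26 members called negative.

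Many interferon response genes fell in both cell types. These genes are switched on by interferon through factors such as STAT2 and IRF9, which act at the interferon-stimulated response element of their promoters. Of 48 members, 36 fell in hepatocytes and 23 in macrophages, with median effects of −1.26 and −0.74. Over all genes tested, 18.7% fell in hepatocytes and 5.48% in macrophages. The difference was negative in 11 of the 48 and positive in 0 (22.9% called, against 7.62% of all genes tested). The macrophage purification enriches 31 of the 48, against 2336 of all 14011 genes tested. The 11 were 7 without fasted hepatocyte library 4 and 7 without fasted macrophage library 1.

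Promoters of 4 genes with a negative difference are shown because they carry that element, searched as GAAANNGAAA on both strands, so that it reads TTTCNNTTTC on the other. The sequences, from RefSeq with the GRCm38.p6 build, run 5′ to 3′ from 250 bases before to 50 bases after the start, with matches in capitals. All 4 genes lie on the + strand.
Gbp7, chr3:142530086-142530385: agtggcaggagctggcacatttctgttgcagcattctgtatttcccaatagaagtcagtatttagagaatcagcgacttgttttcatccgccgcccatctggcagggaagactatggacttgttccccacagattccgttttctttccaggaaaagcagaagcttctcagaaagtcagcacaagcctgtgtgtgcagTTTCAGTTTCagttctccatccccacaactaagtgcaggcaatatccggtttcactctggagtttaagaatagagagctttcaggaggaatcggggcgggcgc
Ifit1, chr19:34640639-34640938: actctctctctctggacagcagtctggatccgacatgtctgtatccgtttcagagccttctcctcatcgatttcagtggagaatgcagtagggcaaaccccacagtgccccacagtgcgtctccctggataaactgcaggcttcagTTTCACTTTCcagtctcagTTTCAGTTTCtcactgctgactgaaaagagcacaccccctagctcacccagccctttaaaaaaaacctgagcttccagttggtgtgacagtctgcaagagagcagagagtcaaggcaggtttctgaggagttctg
Ifit3, chr19:34583279-34583578: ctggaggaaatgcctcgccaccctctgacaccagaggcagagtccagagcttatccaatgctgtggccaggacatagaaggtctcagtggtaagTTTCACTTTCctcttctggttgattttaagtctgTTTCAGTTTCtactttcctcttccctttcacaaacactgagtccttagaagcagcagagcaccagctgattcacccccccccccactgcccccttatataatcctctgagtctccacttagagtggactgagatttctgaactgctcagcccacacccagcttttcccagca
Stat2, chr10:128270248-128270547: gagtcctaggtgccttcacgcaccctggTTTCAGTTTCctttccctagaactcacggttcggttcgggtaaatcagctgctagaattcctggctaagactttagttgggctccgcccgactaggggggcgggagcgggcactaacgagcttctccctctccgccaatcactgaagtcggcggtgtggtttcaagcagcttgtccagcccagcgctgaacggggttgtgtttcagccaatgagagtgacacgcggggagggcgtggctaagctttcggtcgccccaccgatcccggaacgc
Gbp7 and Stat2 hold 1 match each, and Ifit1 and Ifit3 hold 2 each. The Stat2 start used here lies 78 bases from the start in the count table. Of 10699 tested genes with such a promoter, 341 (3.19%) hold the element, against 22 of 32 interferon list members with a promoter (68.8%) and 5 of the 7 members with a promoter and a negative difference (71.4%), the fifth being Ddx58. In the same windows of 300 bases the sterol regulatory element, searched as TCACNCCAC on both strands, stood in 1.11% of all promoters and in 0 of the 10 cholesterol synthesis genes with a promoter and a negative difference. A match or its lack describes letters in this window only.

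Zbp1, a sensor of Z-form nucleic acid, stood at 21.9, 10.1, 20.7 and 15.9 CPM in fed and 1.38, 0.98, 0.529 and 0.429 CPM in fasted hepatocytes. In the macrophage libraries the levels were 50.7, 47.3, 29.2 and 50.2 CPM fed and 22.3, 20.4, 12 and 17.1 CPM fasted. The groups were apart in both cell types, and the difference was −2.95 ± 0.48 (adjusted p = 6.88e-05), while the pools were lower in fasted liver by 2.36 and 2.06. Gbp6, a guanylate-binding protein gene, stood at 26.3, 12.9, 36.4 and 22.6 CPM in fed and 2.12, 2.31, 1.7 and 0.60 CPM in fasted hepatocytes, and at 26.6, 29, 23.9 and 29.5 CPM in fed and 16, 15.2, 7.59 and 12.6 CPM in fasted macrophages (difference −2.72 ± 0.48). Its relative Gbp7, whose promoter is printed above, had a difference of −2.13 ± 0.38. The Gbp and Ifit genes are families of close copies, so counts of single members are uncertain. Ifit1, an antiviral RNA-binding protein gene, fell in both with a difference of −1.84 ± 0.51, and Ifit3 fell in hepatocytes with a difference of −1.61 ± 0.53. Stat2 fell in both with a difference of −0.71 ± 0.20. Psmb9, an immunoproteasome subunit from the antigen presentation list, fell from 4.84 to 0.87 CPM in hepatocytes against 20.9 and 14.3 CPM in macrophages (difference −1.85 ± 0.42). It was the 1 called member (4.55%, against 7.62% of all genes tested) among 22 antigen presentation genes. Of the 22, 10 fell in hepatocytes and 10 in macrophages, against 18.7% and 5.48% of all genes tested.

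Of the 21 genes called in opposite directions, 17 rose in hepatocytes and fell in macrophages, and the macrophage purification enriches 15 of those 17. In the hepatocyte libraries, 10 of 30 Kupffer cell and macrophage markers rose too and 2 fell, against 17.2% and 18.7% of all genes tested. The sum of the 30 there had a median of 290 CPM fed and 389 CPM fasted, in ranges that overlapped. The part of macrophage RNA in the rise of the 17 genes in hepatocyte libraries was not tested. Tanc2, a scaffold protein gene, stood at 82.3, 79.4, 86.9 and 82.8 CPM in fed and 198, 139, 217 and 170 CPM in fasted hepatocytes. Macrophage libraries gave 771, 738, 629 and 582 CPM fed and 536, 425, 312 and 539 CPM fasted. Feeding separated both cell types, upward in hepatocytes and downward in macrophages. The effects were 1.13 ± 0.18 and −0.59 ± 0.18, the difference was 1.71 ± 0.25 (adjusted p = 9.21e-06), and the pools moved by 0.64 and 0.21. Srcin1, an inhibitor of Src kinase, had effects of 0.99 ± 0.29 and −1.01 ± 0.25 and a difference of 2.01 ± 0.38, and its macrophage groups overlapped. Lpar1, a receptor for lysophosphatidic acid, had a difference of 1.63 ± 0.40 and Arhgap27, a GTPase-activating protein gene, one of 1.36 ± 0.33. In the hepatocyte libraries these genes were low, at 1.57 CPM fed for Lpar1 and 1.84 CPM for Arhgap27, against 21.2 and 114 CPM in fed macrophages. Pkm, the pyruvate kinase of most cells other than hepatocytes, rose from 3.48 to 5.35 CPM in hepatocyte libraries and fell from 66.3 to 46.7 CPM in macrophage libraries (difference 1.12 ± 0.27).

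The 4 genes that fell in hepatocytes and rose in macrophages were Ccl9, Inf2, Cpn2 and Cacna1d. Inf2, a formin that builds and severs actin filaments, stood at 100, 105, 82.8 and 77.5 CPM in fed and 59.1, 30.1, 45.8 and 21.5 CPM in fasted hepatocytes. In macrophages it stood at 67, 65.6, 60.9 and 78.8 CPM fed and 85.2, 136, 172 and 104 CPM fasted. The groups were apart in both, and the difference was −2.09 ± 0.36 (adjusted p = 0.000139), while the pools of both lines were lower in fasted liver, by 0.78 and 0.63. Ccl9, a CC chemokine gene, stood at 3.54, 4.05, 3.85 and 3.61 CPM in fed and 0.521, 1.15, 0.764 and 0.686 CPM in fasted hepatocytes. In the macrophage libraries the levels were 2.0, 2.2, 2.2 and 1.38 CPM fed and 3.41, 4.58, 4.33 and 6.37 CPM fasted, again apart in both. Its difference of −3.54 ± 0.45 (adjusted p = 1.07e-06) was also called at 3, 16 and 24 h, at −1.96, −1.70 and −2.90. Cpn2, a subunit of the plasma enzyme carboxypeptidase N, and Cacna1d, a calcium channel gene that overlaps Chdh and Dcp1a, had differences of −1.40 ± 0.26 and −1.34 ± 0.30. The macrophage purification depletes both, and their rises of 0.60 ± 0.18 and 0.72 ± 0.21 in macrophage libraries stand beside the higher hepatocyte marker sum of those libraries. The pools gave −0.85 and 0.09 for Cpn2 and −0.59 and 0.53 for Cacna1d, and with their difference subtracted the differences were −0.33 and −0.09.

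Of the 52 genes called in macrophages only, the macrophage purification enriches 25, which all fell in macrophage libraries, and depletes 16, which all rose there. In those libraries the hepatocyte marker sum was 6043 to 8973 CPM fed and 11159 to 13568 CPM fasted. The Kupffer cell and macrophage marker sum was 9400 to 12500 CPM fed and 7337 to 11650 CPM fasted. The part of a changed share of hepatocyte RNA in these falls and rises was not tested. Lilr4b, an inhibitory receptor of myeloid cells, stood at 281, 273, 188 and 193 CPM in fed and 134, 115, 51 and 143 CPM in fasted macrophages, with no overlap. In hepatocyte libraries it was between 0.638 and 1.3 CPM fed and between 1.03 and 2.47 CPM fasted, ranges that overlapped. The macrophage effect was −1.08 ± 0.23, the difference was 1.89 ± 0.42 (adjusted p = 0.0025), and the pools were lower in fasted liver by 0.49 and 1.02. Hrh1, the histamine H1 receptor, Pkib, an inhibitor of protein kinase A, and Lrrc25, a myeloid leucine-rich repeat protein, fell in macrophages by 0.74 ± 0.25, 0.83 ± 0.23 and 0.67 ± 0.21. Their hepatocyte means were at most 0.857 CPM, and their differences of 2.11 ± 0.67, 1.56 ± 0.48 and 1.74 ± 0.57 were lost in 8, 8 and 12 of the 16 fits that left out 1 library. The highest adjusted p was 0.223 for Hrh1 without fasted hepatocyte library 1, and 0.116 for Pkib and 0.177 for Lrrc25 without fasted hepatocyte library 2.

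Iron and heme genes, which Kupffer cells use to recycle red cell iron, included several with positive differences. In hepatocytes 10 of 23 members rose and 1 fell, against 17.2% and 18.7% of all genes tested. In macrophages 4 rose and 0 fell, against 5.56% and 5.48% of all genes tested. The difference was called positive in 5 and negative in 0 (21.7% called, against 7.62% of all genes tested). The 5 were 3 without fed hepatocyte library 3, without fasted macrophage library 2 or without fed macrophage library 1. Hmox1, heme oxygenase, stood at 3.48, 3.5, 2.28 and 3.45 CPM in fed and 22.1, 26.8, 35.3 and 9.09 CPM in fasted hepatocytes. Macrophage libraries gave 68.2, 72.8, 62 and 59.1 CPM fed and 64.5, 70.6, 54.5 and 87 CPM fasted. The hepatocyte groups were apart, the macrophage groups overlapped, and the difference was 2.79 ± 0.37 (adjusted p = 1.67e-06), with pool effects of 1.40 and 0.94. Bach1, a heme-sensing repressor of Hmox1, rose in hepatocytes with a difference of 0.77 ± 0.18, and Slc48a1, a heme transporter, with one of 0.92 ± 0.26. Tfrc, the transferrin receptor, had a difference of 0.70 ± 0.21 with neither effect called (0.33 ± 0.15 and −0.37 ± 0.15). Spic, a transcription factor of iron-recycling macrophages, rose from 0.0739 to 0.485 CPM in hepatocyte libraries against 42.4 and 44.5 CPM in macrophage libraries (difference 2.52 ± 0.65). Summed over the 4 hepatocyte libraries of a group, Spic had only 5 counts fed and 35 fasted, and a fed library was at 0.

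Hmox1 and Spic are also among the 30 Kupffer cell and macrophage markers. Of these, 6 had a positive and 0 a negative difference (20% called, against 7.62% of all genes tested). Of the 30, 10 rose and 2 fell in the hepatocyte libraries, and 1 rose and 3 fell in the macrophage libraries. In the hepatocyte libraries the sum of the 30 was 283 to 327 CPM fed and 264 to 404 CPM fasted. There 1 marker was at 0 in the 4 fasted libraries. Csf1r, the receptor for macrophage growth factor, rose from 6.4 to 9.65 CPM in hepatocyte libraries against 921 and 726 CPM in macrophage libraries (difference 0.94 ± 0.24). Vsig4, a complement receptor, rose from 6.14 to 11.5 CPM against 1026 and 873 CPM (difference 1.15 ± 0.34), and was lost in 6 of the 16 fits, with an adjusted p of 0.0651 without fasted macrophage library 3. The part of macrophage RNA in the rise of these genes in hepatocyte libraries was not tested.

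The 24 hepatocyte markers had 7 negative and 0 positive differences (29.2% called, against 7.62% of all genes tested). In hepatocytes 6 fell and 1 rose, and in macrophage libraries 11 rose and 0 fell. Over all genes tested, 18.7% fell and 17.2% rose in hepatocytes, and 5.56% rose and 5.48% fell in macrophage libraries. In the acute phase list of 26 secreted liver proteins, 8 fell and 3 rose in hepatocytes, and 7 rose and 0 fell in macrophage libraries. The list had 4 negative and 0 positive differences (15.4% called, against 7.62% of all genes tested). Those 4 were 1 without fed macrophage library 1, 2 without fed macrophage library 2 or fasted macrophage library 4, and 6 without fed macrophage library 3. Fga, fibrinogen alpha, rose in macrophage libraries (0.81 ± 0.27) with a hepatocyte effect of −0.60 ± 0.26 that was not called (difference −1.41 ± 0.37), and the pools gave −0.62 and 0.35. Saa4, a serum amyloid protein, fell in hepatocytes (−0.99 ± 0.36). Its macrophage effect of 0.81 ± 0.36 was not called, though fed and fasted macrophage libraries did not overlap (means 16.1 and 28.2 CPM). Its difference of −1.80 ± 0.51 was not called without fed macrophage library 1 (−1.66, adjusted p = 0.0552). The macrophage purification depletes Saa4. Its pools gave −0.83 and 0.34, and with their difference subtracted it stood at −0.48. Itih4, a plasma inhibitor heavy chain, fell in hepatocytes by 1.94 ± 0.32 (difference −1.46 ± 0.44) and was lost in 5 of the 16 fits, with an adjusted p of 0.0945 without fasted macrophage library 4. Of the 5092 genes that the macrophage purification depletes, 346 were called (6.79%), 72 positive and 274 negative, and the pools shared the sign in 97.1% of the 346. Of the 2336 genes that it enriches, 224 were called (9.59%), 151 positive and 73 negative, and the pools shared the sign in 62.1% of the 224.

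**Figure D4:**
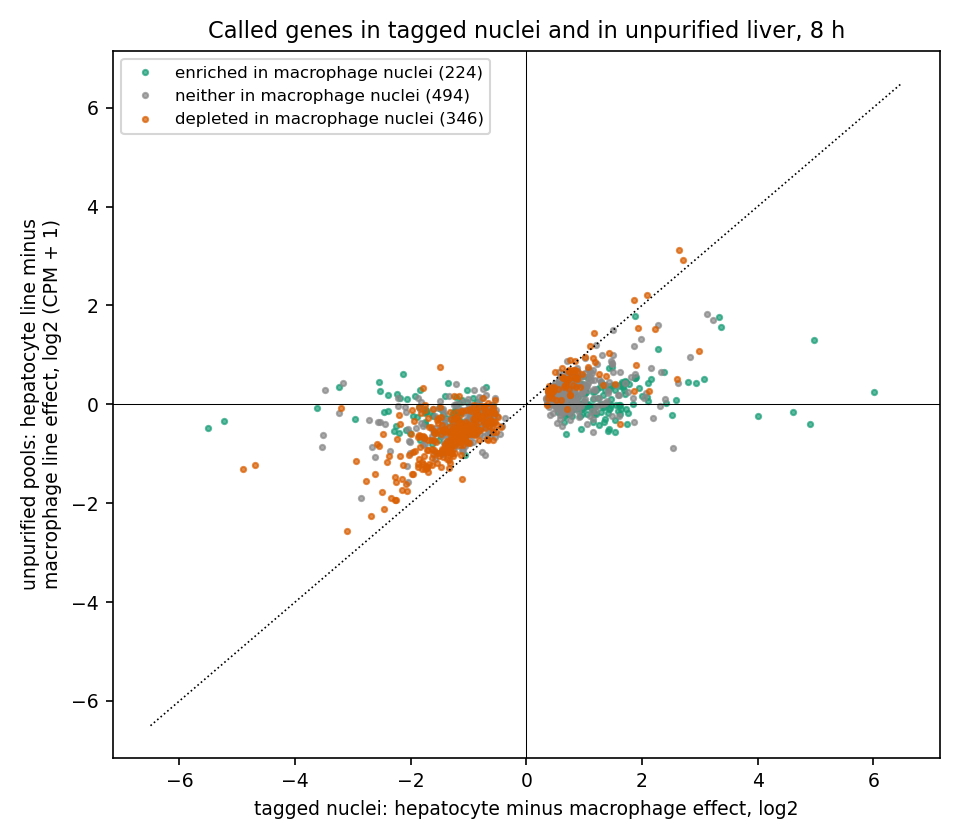
Difference of the fasting effects at 8 h in tagged nuclei (x axis, log2) against the same difference between the unpurified pools of the 2 lines (y axis, log2 of CPM + 1, 1 pool a condition) for called genes, by their class in the macrophage purification. The pools share the sign of 97.1% of the 346 depleted genes and of 62.1% of the 224 enriched genes.

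Clock genes had 1 called difference in each direction among 18 (11.1% called, against 7.62% of all genes tested). Nr1d2, which encodes the heme-binding repressor REV-ERB beta, stood at 21.1, 20.1, 15.7 and 20.8 CPM in fed and 97.6, 67.2, 89.3 and 106 CPM in fasted hepatocytes. In macrophages it stood at 53.8, 62.6, 52 and 61 CPM fed and 69.8, 79.4, 56.6 and 61.8 CPM fasted. The hepatocyte groups were apart and the macrophage groups overlapped, and the difference was 1.99 ± 0.25 (adjusted p = 9.36e-07), with pool effects of 1.97 in the hepatocyte line and 0.66 in the macrophage line. Per2, a repressor of the clock, stood at 262, 323, 215 and 261 CPM in fed and 72.4, 84.9, 58.4 and 88.6 CPM in fasted hepatocytes, and at 61.8, 78, 85.5 and 76.3 CPM in fed and 75.5, 59.8, 72.6 and 55.1 CPM in fasted macrophages, so that again only the hepatocyte groups were apart (difference −1.61 ± 0.37). The pools gave −1.48 and −0.55.

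The signalling and stress genes named here were mostly called in hepatocytes only, as were 79.5% of all genes with a called difference. The share of members with a called difference was 15.4% for insulin and mTOR signalling and 4.55% for growth hormone and STAT5 targets. It was 6.25% for autophagy and lysosome, 12.5% for immediate early genes, 17.4% for PPAR and lipid handling and 6.67% for amino acid catabolism. Of all genes tested, 7.62% were called. Pik3r1, a regulatory subunit of the insulin-responsive lipid kinase, fell there by 0.75 ± 0.15 (difference −0.89 ± 0.21). Ghr, the growth hormone receptor, fell there by 1.78 ± 0.32, and its difference of −1.44 ± 0.44 was lost in 8 of the 16 fits, with an adjusted p of 0.087 without fed macrophage library 1. Bnip3l, a mitophagy receptor, rose in hepatocytes with a difference of 1.31 ± 0.25, and Tfeb, a regulator of lysosome genes, with one of 0.63 ± 0.17. Fed and fasted macrophage libraries did not overlap for Bnip3l, whose effect of 0.45 ± 0.18 there was not called. Fosl2, an AP-1 subunit, rose with a difference of 1.01 ± 0.26, and the pools gave 1.45 and 0.51. Ppard, a nuclear receptor for fatty acids, fell in both with a difference of −0.70 ± 0.18. Glud1, glutamate dehydrogenase, fell in hepatocytes by 1.14 ± 0.24 (difference −1.28 ± 0.33), and the pools gave −1.10 and −0.12.

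Among inflammatory genes, Cxcl1, a neutrophil chemokine, fell from 4.21 to 0.675 CPM in hepatocytes (difference −2.58 ± 0.57), and Il1rn, the interleukin 1 receptor antagonist, rose from 0.472 to 2.24 CPM (difference 2.07 ± 0.55). Neither effect was called in macrophages, where Cxcl1 stood at 1.73 and 1.61 CPM and Il1rn at 2.3 and 2.57 CPM. The called differences of Aldoa, Cd36, Haao, Il18, Pcna, Pfkp and Xbp1 were each lost in 5 to 14 of the 16 fits that left out 1 library. In edgeR's fit of the 64 libraries no difference was called among 21 bile acid genes (8 at an unadjusted p under 0.05), 8 metallothionein and zinc transport genes (2) or 15 heat shock genes (0). DESeq2 called 1 bile acid gene and 0 in the other 2 lists, and other settings called up to 2 bile acid genes and up to 1 metallothionein or zinc transport gene. Among the 19 endothelial, 20 stellate cell and 9 lymphocyte markers, 0 were called by either tool, with 2, 1 and 1 at an unadjusted p under 0.05. Of the 9 cholangiocyte markers, 0 were called by edgeR, with 1 at an unadjusted p under 0.05, and 1 by DESeq2. In the hepatocyte libraries the cholangiocyte marker sum was 438 to 541 CPM fed and 95.7 to 182 CPM fasted. In the macrophage libraries it was 158 to 229 CPM fed and 78.8 to 106 CPM fasted. Of the 9 tested, only 3 fell in hepatocyte libraries (median effect −0.49) and 1 in macrophage libraries (median −0.31), so the sums do not describe every member.

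The differences at 8 h overlapped in part with those at the other times. At 3 h, 1485 genes (10.6%) were called, 869 positive (6.2%) and 616 negative (4.4%). At 16 h, 75 (0.535%) were called, 57 positive (0.407%) and 18 negative (0.128%), and at 24 h 567 (4.05%), 294 positive (2.1%) and 273 negative (1.95%). Of the 1068 genes called at 8 h, 326 were also called with the same sign at 3 h, 32 at 16 h and 142 at 24 h. All 4 times shared 5 genes, and 625 were called at no other time. A test of the 8 h difference against the mean of the differences at the other times called 8 genes (0.0571%), 8 higher (0.0571%) and 0 lower (0%). They were Txnip (2.92 ± 0.58), Hmox1 (2.52 ± 0.43), Nr1d2 (1.57 ± 0.29), Acyp2, Shtn1, Mrps28, Ino80 and Fbxo32. Fbxo32, a ubiquitin ligase gene known from muscle atrophy, had a difference of 1.89 at 8 h and −1.87 at 24 h. Acyp2, an acylphosphatase gene, had one of 1.48 at 8 h and between −0.21 and 0.32 at the other times.

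**Figure D5:**
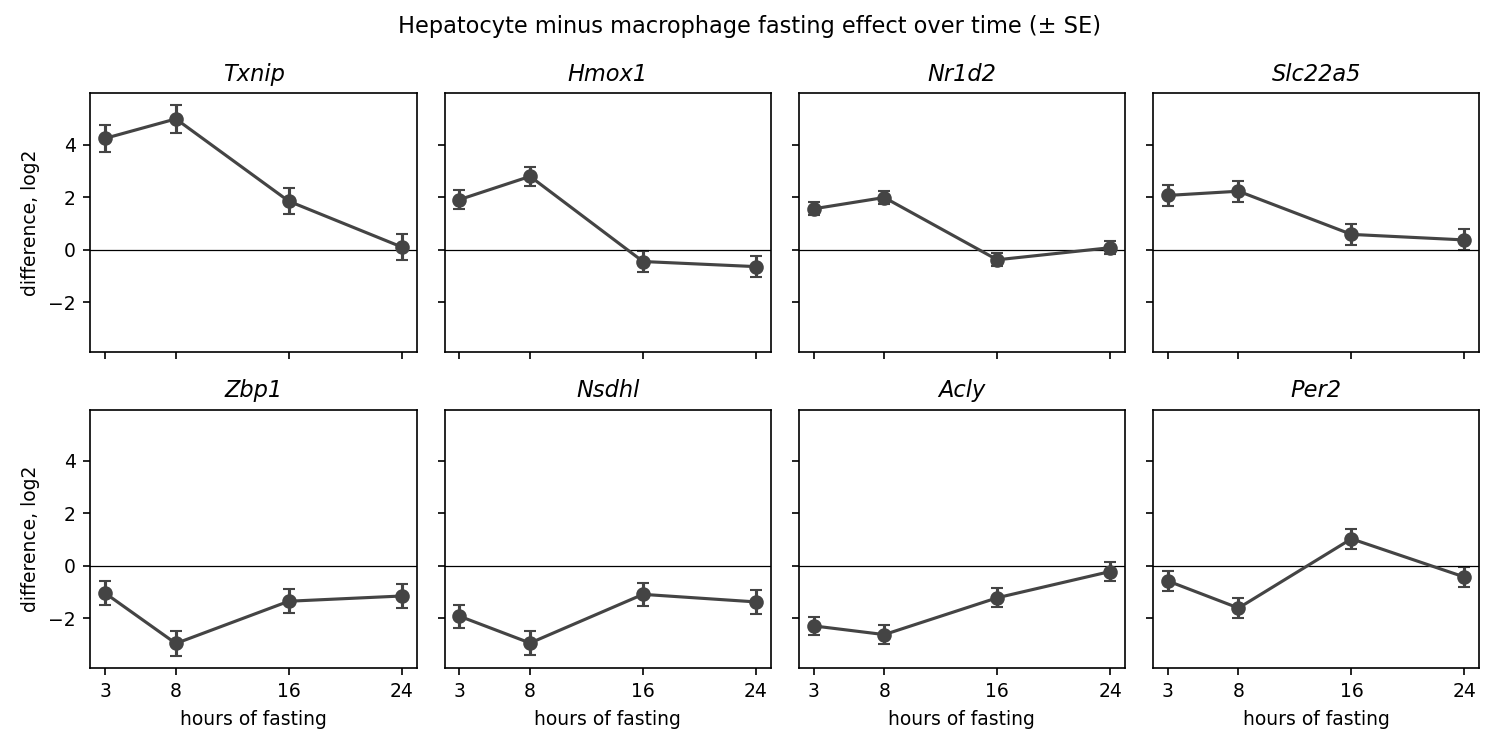
Hepatocyte minus macrophage fasting effect (log2, points, with the standard error as bars) of 8 genes at 3, 8, 16 and 24 h of fasting. Txnip goes from 4.98 at 8 h to 0.10 at 24 h, Hmox1 from 2.79 to −0.64, and Acly from −2.62 to −0.21.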

How the data were processed

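Nuclear RNA of purified, tagged nuclei was sequenced as 50 base paired-end reads from a stranded kit without selection for poly-A, per the labels' protocols. The authors deposited a table of raw counts for 20105 genes, with coordinates of whole gene bodies. STAR 2.4.2a, the mm10 build and DESeq2 1.24.0 appear in the submitters' processing notes, which give no role for them, no counting program and no use of strand. Samples were grouped by their titles. Genes with low counts were left out with filterByExpr (count minimum 10, total minimum 15). The 64 tagged libraries of 16 groups were fitted together with edgeR 4.0.16 (TMM factors, robust quasi-likelihood test, 48 residual degrees of freedom) in R 4.3.3, with Benjamini-Hochberg adjustment over 14011 genes and a threshold of 0.05. The 8 h difference is a contrast of 4 groups of that fit. CPM were computed from the deposited counts. The macrophage purification compared 24 tagged libraries with 6 pools of that line at 3, 16 and 24 h. A gene is enriched above a log2 difference of 1 and depleted below 0, both with an adjusted p under 0.05. Pool effects used a pseudocount of 1 CPM.

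The members and lists were chosen with earlier results of these data known. Genes were named if called, at a mean of at least 1 CPM, with no overlap of fasted and fed libraries in a cell type, as the highest and lowest 4 of each of 3 patterns (opposite directions, hepatocytes only, and macrophages only among enriched genes), the 3 highest and lowest called in both in the same direction, and up to 3 members of each list by p. Others are list members or markers named after their values were seen. On simulated counts for 13895 genes, the test of the 8 h difference recovered 41 of 100 genes changed by 1 on the log2 scale and 83 of 99 changed by 2, with 5 unchanged genes called. DESeq2 1.42.0 was run as an alternative, as were RLE scaling, no filter, a block for stretches of consecutive library numbers in the titles (3 in the hepatocyte line and 4 in the macrophage line, with no statement in the labels of what they mark), the 16 libraries alone and each of 16 libraries left out. Promoters came from RefSeq. Some genes of the lists are counted in them but not reported singly here.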

Additional observations from a re-analysis of the deposited data

Results flagged for a closer look

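The fasting effect differed between hepatocytes and macrophages at 8 h in 541 genes in the positive and 527 in the negative direction, by the test of the difference itself. For 3 named genes the 8 h difference also exceeded the mean of the differences at 3, 16 and 24 h by that test: Txnip by 2.92 (adjusted p = 0.0152), Hmox1 by 2.52 (adjusted p = 0.00192) and Nr1d2 by 1.57 (adjusted p = 0.00532).

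In groups of 4 libraries, a value was noted where its gap to the nearest library as a share of the group's range exceeded Dixon's 95% critical value. This held for 13 of 272 groups (4.78%), where chance alone gives about 5%. Fasted macrophage library 3 was such a value for Cpn2 (47.3 CPM), Acot2 (3.21 CPM), Pfkp (19.0 CPM) and Il18 (42.5 CPM). Fed macrophage library 3 was one for Zbp1 (29.2 CPM), Slc37a4 (11.6 CPM) and Pkm (54.6 CPM), and fed macrophage library 4 for Acly (327 CPM). In hepatocytes, fed library 1 stood apart for Myom1 (3.12 CPM), fed library 3 for Hmox1 (2.28 CPM), and fasted library 2 for Lrrc25 (0.634 CPM) and Saa4 (33.9 CPM). The total of 1 fed macrophage library, 42080780 counts, was the other.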

How the results depend on the processing

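Of the 1068 called differences, the same-sign calls kept were 1034 with RLE scaling, 867 with no filter, 1021 with the block for stretches of library numbers, 901 with the 16 libraries alone, 1060 with DESeq2, and 690 to 968 with 1 library left out. Of the 67 genes named by the rule, 46 stayed called under all of these settings, 21 were lost under at least 1 and 0 reversed. The 16 libraries alone gave 848 negative differences. The test of 8 h against the other times gave 1 lower gene with the block for stretches of library numbers, and 66 higher and 23 lower with DESeq2. With 1 library left out, positive differences ranged from 361 to 556 and negative ones from 335 to 608. Macrophage rises then ranged from 333 to 850 and falls from 208 to 845, hepatocyte rises from 2052 to 2445 and falls from 2275 to 2673.

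With the pools' own difference subtracted, an alternative chosen after seeing the data in which each lone pool is assumed to vary like the tagged groups, edgeR called 0 positive and 0 negative differences, with 286 genes at an unadjusted p under 0.05. Ehhadh then stood at −0.036, Slc37a4 at 0.11 and Pdk4 at −0.45. The cause was not tested. Pools without replicates limit the comparison with the pools subtracted, and it was not simulated. Its standard errors were larger, for example 1.13 for Txnip against 0.52 for the 8 h difference itself. On counts simulated for the tagged libraries alone, 41% of 8 h differences of 1 on the log2 scale were recovered at this depth and number of libraries. No analysis paired by replicate was run, because the labels give no replicate numbers that link fed, fasted, hepatocyte and macrophage libraries. In the macrophage line, each stretch of consecutive library numbers held a fed and a fasted library at 8 h. Fed and fasted macrophage library 3 shared a stretch. The block for stretches, the nearest to a pairing that was run, called 1116 differences, against 1068 without it.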
